A study of Mus musculus with 17 samples.

Results

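The comparison of multipotent progenitors (MPP) with common myeloid progenitors (CMP) followed the step by which bone marrow cells leave the stem cell compartment and enter the committed myeloid compartment. The samples were taken by the cell type in their labels, which gave 3 MPP arrays and 3 CMP arrays of the 17 mRNA arrays in the series, and all 41174 non-control probes were compared, standing for 28090 gene names. The other arrays held long-term and short-term hematopoietic stem cells (LT-HSC and ST-HSC), granulocyte-monocyte progenitors (GMP) and megakaryocyte-erythroid progenitors (MEP). All cells came from bone marrow of female C57Bl/6 mice aged 6 to 8 weeks, and marrow of 10 to 20 mice went into each replicate sample, so that spread between animals was not measured. Marrow was depleted of cells with lineage antigens and enriched for c-kit, and flow sorting then separated LIN- c-kit+ Sca-1+ CD34+ FLT3+ cells as MPP and LIN- c-kit+ Sca-1- cells with intermediate CD34 and Fc receptor as CMP. The stem cell subsets, MPP among them, and the myeloid progenitors were obtained in separate sorts, so sort and population cannot be told apart. RNA was labeled with Cy3 and hybridized to single-color Agilent whole-genome mouse arrays, and each value is a log2 intensity after quantile normalization. The number of arrays limits the precision. The p-values rest on the spread between arrays of the same population, pooled over all 17 arrays. Arrays that share a slide were taken as independent in the main fit.

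In the usual scheme of blood formation MPP lie just below the stem cells and can still give rise to lymphoid and myeloid cells, whereas CMP have lost lymphoid output and give rise to granulocytes, monocytes, red cells and megakaryocytes. Gata1, Klf1 and Gata2 are transcription factors of the red cell, megakaryocyte and mast cell lineages, Cebpa and Spi1 are those of granulocytes and monocytes, and Hlf, Prdm16 and the Hoxa factors are associated with stem cell self-renewal. Intensities here are means over sorted pools, so a lower level can stand for fewer expressing cells or for less RNA per cell, which cannot be told apart.

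The arrays of one population did not share a scan day. MPP replicates 2 and 3 lay on 1 slide of scan day 4, CMP replicates 1 and 2 lay on 2 slides of scan day 1 with another scanner and software version, and the MPP and CMP arrays without a replicate number lay on 1 slide of scan day 2. Between 53.8% and 70.0% of the spots of these 6 arrays were well above background. Over all probes the intensities of the numbered arrays correlated at 0.992 for MPP and 0.990 for CMP, while the unnumbered MPP array correlated at 0.976 and 0.977 with the other MPP arrays and at 0.980 with the CMP array of its own slide. Differences were therefore also fitted with scan day as a block, and the difference within the shared slide is given as the same-slide difference.

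A probe was called when its limma p, adjusted by Benjamini-Hochberg over all probes, was below 0.05, and positive differences are higher in CMP. Of the 41174 probes 4998 were called (12.1%), 2778 higher in CMP and 2220 higher in MPP, so 55.6% of calls were higher in CMP. With the arrays scaled to their 75th percentile instead, the median difference over all probes moved from 0.03 to -0.10 on the log2 scale, and 1531 probes were called higher in CMP against 2210 higher in MPP, a share of 40.9%. With scan day as a block 1393 probes were called, 572 higher in CMP and 821 higher in MPP. Counted by gene name, each represented by its brightest probe, 1616 names (5.75%) were called higher in CMP and 1829 (6.51%) higher in MPP. With the scan-day block these became 413 names (1.47%) and 675 names (2.4%).

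The pair on the shared slide gave a check on the numbered arrays. When both shared-slide arrays were left out of the fit, 4043 probes were called higher in CMP, and 86.8% of them were also higher in the CMP array of the shared slide. Of the probes then called higher in MPP, 3914 had a same-slide difference, and 77.2% of them were also lower in that CMP array. The median difference in these groups of probes was 1.53 over the numbered arrays and 0.41 within the slide for those higher in CMP, and -1.43 and -0.29 for those higher in MPP. Over all probes, 57.5% had the same sign in both. The directions were thus mostly shared, and the sizes within the slide were smaller.

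**Figure D1:**
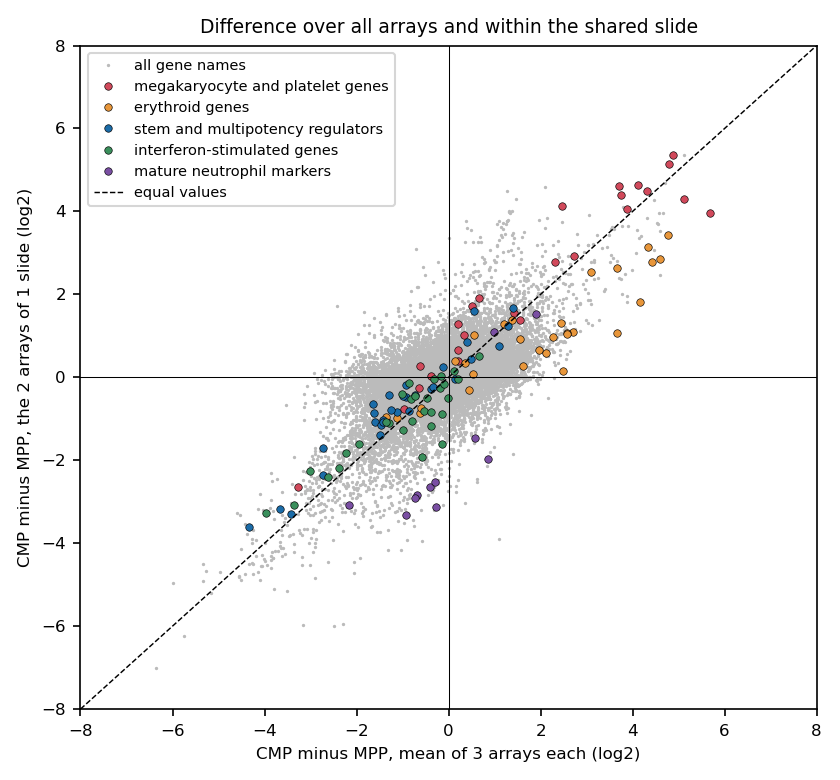
Each gray point is 1 gene name, with the CMP minus MPP difference over 3 arrays each on the x axis and the difference between the arrays of the shared slide on the y axis, both in log2 units. The megakaryocyte and erythroid genes lie mostly in the upper right, with medians of 1.55 and 2.12 on the x axis and 1.90 and 1.01 on the y axis, while 9 of 11 mature neutrophil markers lie below 0 on the y axis, with a median of -2.65 over the list. The dashed line marks equal values.

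Genes were singled out when they were called in both fits, when the 3 arrays of one population did not overlap those of the other, when the shared slide gave the same sign, and when all 3 arrays of the brighter population were well above background. The rule left 300 gene names higher in CMP and 551 higher in MPP, and the 12 largest differences of each are described as leading genes. All 24 were called the same way under all 17 alternatives, and none had another probe called the opposite way. The rule itself required the separation of the arrays and the sign within the slide, so these are descriptions of the leading genes and no further test.

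**Figure D2:**
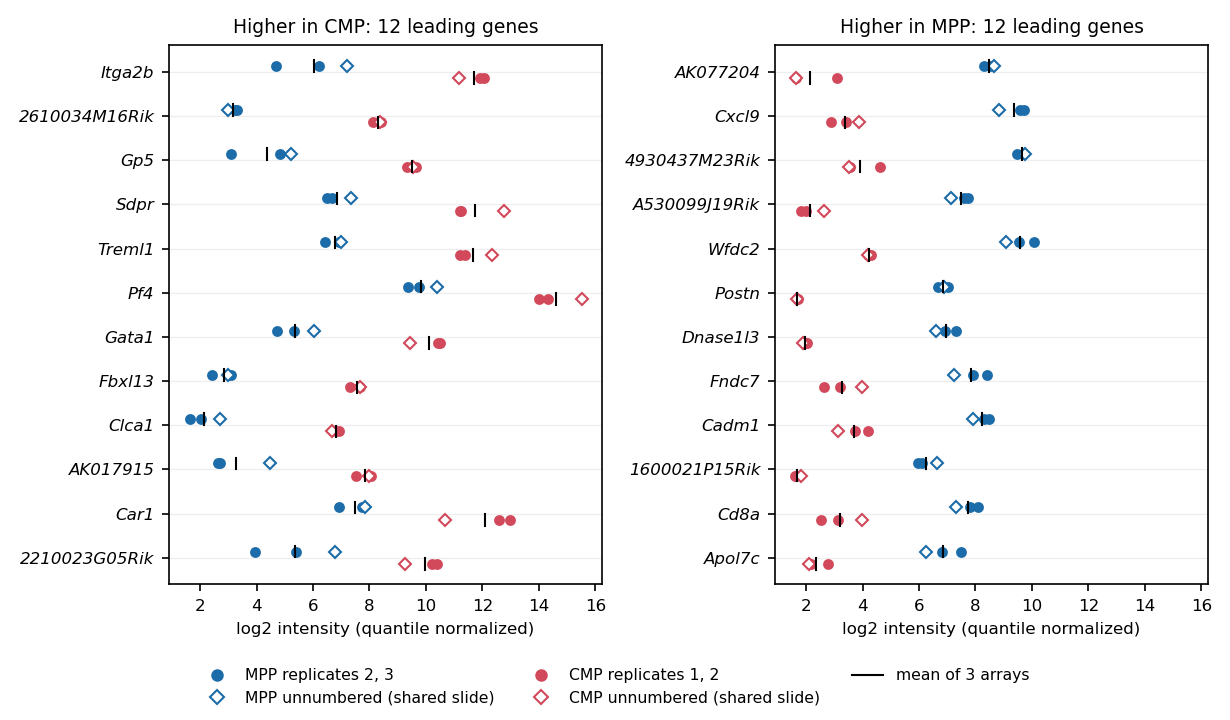
Log2 intensity of the 12 leading genes of each direction on the 6 arrays. Filled circles are the numbered arrays, open diamonds are the arrays of the shared slide, and black ticks are means of 3 arrays. Where the dimmer population had at least 1 array well above background, means differed by 4.59 to 5.69 in the genes higher in CMP and by -5.99 to -4.53 in the genes higher in MPP. The other points of a dimmer population lie at background and bound its level only.

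The leading genes on the CMP side included the platelet surface proteins Itga2b, Gp5 and Treml1. Itga2b, the integrin chain CD41 that pairs with the beta 3 chain into the platelet fibrinogen receptor, had log2 intensities of 4.69, 6.22 and 7.21 in MPP (replicates 2 and 3 and the unnumbered array) and of 12.06, 11.92 and 11.18 in CMP (replicates 1 and 2 and the unnumbered array). All CMP arrays were above all MPP arrays, the difference was 5.69 ± 0.53 (SE) with an adjusted p of 4.31e-05, and it was 3.97 within the shared slide. Gp5, a subunit of the platelet receptor for von Willebrand factor, had 3.11, 4.82 and 5.23 in MPP and 9.32, 9.65 and 9.54 in CMP, a difference of 5.11 ± 0.46 (adjusted p = 3.41e-05). Pf4, the platelet factor 4 chemokine of the alpha granule, rose from 9.35, 9.77 and 10.41 in MPP to 14.32, 13.99 and 15.54 in CMP, a 27.4-fold difference. The CMP array of the shared slide had the highest Pf4 level of the 6 arrays, whereas for Itga2b it had the lowest of the 3 CMP arrays. Treml1, a receptor stored in platelet alpha granules, differed by 4.87 ± 0.37, and Cavin2, a caveolar coat protein listed on the array as Sdpr, by 4.90 ± 0.49.

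The rest of the CMP side held an erythroid pair and several genes outside these lineages. Gata1 had 4.74, 5.32 and 6.02 in MPP and 10.44, 10.50 and 9.44 in CMP, a difference of 4.77 ± 0.40 (adjusted p = 1.89e-05). Car1, the carbonic anhydrase of early red cells, went from a mean of 7.5 ± 0.50 (SD, n = 3) in MPP to 12.09 ± 1.23 (SD, n = 3) in CMP. Pdzph1, listed on the array as 2610034M16Rik, had 3.31, 3.24 and 2.99 in MPP and 8.13, 8.41 and 8.36 in CMP. Fbxl13, an F-box protein gene, differed by 4.71 ± 0.37, and Ces2g, a carboxylesterase gene listed as 2210023G05Rik, by 4.59 ± 0.58. The probe named Clca1 on the array matches the transcript now named Clca3a1 and was not well above background in MPP on any array. Its CMP mean was at least 23.5-fold above its MPP mean, and within the shared slide the fold was 15.5. The transcript AK017915, for which the reference gives no gene name, differed by 4.59 ± 0.45. Within the shared slide the differences were 3.42 for Gata1, 2.86 for Car1, 5.37 for Pdzph1 and 4.68 for Fbxl13. They were 2.47 for Ces2g, 3.95 for Clca3a1 and 3.53 for AK017915. In MPP the probe of Fbxl13 was well above background on 1 array, and those of Pdzph1 and AK017915 on 2 arrays.

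The leading genes on the MPP side included a chemokine, a T cell coreceptor chain and secreted proteins. Cxcl9, a chemokine induced by interferon gamma, had 9.58, 9.72 and 8.83 in MPP and 2.90, 3.40 and 3.86 in CMP, where 1 array of 3 was well above background. The difference was 5.99 in favor of MPP with an SE of 0.52 and an adjusted p of 2.5e-05, and within the slide the CMP array was lower by 4.97. Cd8a, which encodes the alpha chain of the T cell coreceptor CD8, had 7.82, 8.10 and 7.32 in MPP and 3.14, 2.52 and 3.99 in CMP. Wfdc2, a secreted protein with whey acidic protein domains, had means of 9.56 ± 0.49 in MPP and 4.23 ± 0.07 in CMP (SD, n = 3 each). Fndc7, a gene for a fibronectin type III domain protein, had means of 7.86 ± 0.59 and 3.26 ± 0.67. In CMP the probes of Cd8a, Wfdc2 and Fndc7 were each well above background on 1 array.

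For 7 of the 12 genes on the MPP side no CMP array was well above background, and only a lower bound on the fold between the means can be given. The mean of the 3 MPP arrays is then set against a floor, which on each CMP array is the lowest signal among probes well above background or the probe's own signal where that is higher. Gpr141b, an orphan receptor gene listed as A530099J19Rik, was at least 38-fold higher in MPP. Postn, the matrix protein periostin, was at least 30.8-fold higher, Dnase1l3, a secreted nuclease, at least 30.6-fold, and Cadm1, a cell adhesion molecule, at least 23.5-fold. The bounds were 22.8-fold for Apol7c, an apolipoprotein L gene, and 20-fold for Mb21d2, listed as 1600021P15Rik. These bounds allow for no error of the means. Within the shared slide the fold was below the bound for Gpr141b (22.6), Dnase1l3 (26) and Apol7c (17.8). It was above the bound for Cadm1 (27.9) and Mb21d2 (28.2). The transcript AK077204 had 8.29, 8.52 and 8.66 in MPP, and its bound of 70.9-fold was the largest of these, with a fold of 130 within the slide. Its probe lies at chr5:11263220-11263279 of mm9, on the same chromosome as the probe of 4930437M23Rik at chr5:11485497-11485556, which had 9.67, 9.47 and 9.77 in MPP and 4.62, 3.55 and 3.53 in CMP, with 1 CMP array well above background. The reference lists 4 promoters under the name 4930437M23Rik, so signal from related copies cannot be separated for this gene.

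Promoters are shown for the 3 leading genes of each direction that the RefSeq promoter table (GRCm38.p6) holds, so that the sequence upstream of the largest differences can be read beside the values. Of the 24 leading genes 18 were in the table. Each sequence is the 250 bases before the transcription start, read 5′ to 3′ on the strand of the gene, which is the minus strand for all 6, and capitals mark matches to the searched motifs. They span chr11:102469884-102470133 for Itga2b, chr17:58991376-58991625 for Pdzph1, chr16:30310782-30311031 for Gp5, chr5:92328080-92328329 for Cxcl9, chr5:11501453-11501702 for the first table entry of 4930437M23Rik and chr13:19732952-19733201 for Gpr141b.
Itga2b: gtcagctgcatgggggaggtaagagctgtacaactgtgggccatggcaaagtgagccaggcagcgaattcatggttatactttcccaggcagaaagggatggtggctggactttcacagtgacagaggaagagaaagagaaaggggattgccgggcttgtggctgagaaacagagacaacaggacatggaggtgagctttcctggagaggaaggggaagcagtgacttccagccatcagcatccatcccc
Pdzph1: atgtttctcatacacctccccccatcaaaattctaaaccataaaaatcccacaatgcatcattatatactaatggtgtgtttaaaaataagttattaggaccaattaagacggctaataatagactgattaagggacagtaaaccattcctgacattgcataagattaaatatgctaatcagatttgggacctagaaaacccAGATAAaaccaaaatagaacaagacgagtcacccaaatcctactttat
Gp5: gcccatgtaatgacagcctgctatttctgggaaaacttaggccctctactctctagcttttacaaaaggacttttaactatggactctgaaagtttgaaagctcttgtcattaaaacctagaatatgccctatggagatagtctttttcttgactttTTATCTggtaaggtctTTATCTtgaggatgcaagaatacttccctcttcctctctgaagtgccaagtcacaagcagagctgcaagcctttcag
Cxcl9: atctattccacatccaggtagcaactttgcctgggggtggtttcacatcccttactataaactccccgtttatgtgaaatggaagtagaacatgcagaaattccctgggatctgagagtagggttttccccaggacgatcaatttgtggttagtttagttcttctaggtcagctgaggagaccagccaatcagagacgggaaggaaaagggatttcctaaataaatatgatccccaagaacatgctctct
4930437M23Rik: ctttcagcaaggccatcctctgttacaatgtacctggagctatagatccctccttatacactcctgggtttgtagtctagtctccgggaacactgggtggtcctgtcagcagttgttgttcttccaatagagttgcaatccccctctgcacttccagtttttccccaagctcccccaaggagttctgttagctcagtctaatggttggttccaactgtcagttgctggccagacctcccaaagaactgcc
Gpr141b: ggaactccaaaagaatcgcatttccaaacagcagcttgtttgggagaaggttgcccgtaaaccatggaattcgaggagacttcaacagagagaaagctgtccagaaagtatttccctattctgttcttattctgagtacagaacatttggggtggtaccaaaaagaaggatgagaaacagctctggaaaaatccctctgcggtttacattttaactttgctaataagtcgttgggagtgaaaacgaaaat

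Each window was searched on both strands for AGATAA, to which Gata1 and its relatives bind, for CCACACCC, a motif of Klf1 and related factors, for CCGGAAGT, a motif of the Ets family, and for TTGCGCAA, a motif of the C/EBP family. No match in the windows shown overlapped another. AGATAA was found once in the Pdzph1 promoter, with its first base at -48 from the start, and at -93 and -77 in the Gp5 promoter, both times on the other strand as TTATCT. The Itga2b promoter and the 3 promoters of genes higher in MPP held none of the 4 motifs in these letters. Among all 32851 promoter windows of the reference, 9.99% held AGATAA, 3.2% CCACACCC, 2.88% CCGGAAGT and 0.164% TTGCGCAA, so a match to the first of these is common in windows of this length and is given as a description.

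Gene lists of known roles were then read against the shares over all gene names given above (5.75% higher in CMP, 6.51% higher in MPP). The lists were chosen when earlier results of these data were known, so their counts are descriptions and no test. Of 524 list entries 515 were found on the array. Counts with the scan-day block include members called with the block alone, which were Tek, Ppbp, Ms4a2, Gins1, Kif11, Tpx2, Cdkn1c, Pim1, Irf1, Oasl1, Lfng, Mfng and Plvap. Where leaving out 1 array moved a count by over 1.5 times, the count without it is given.

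**Figure D3:**
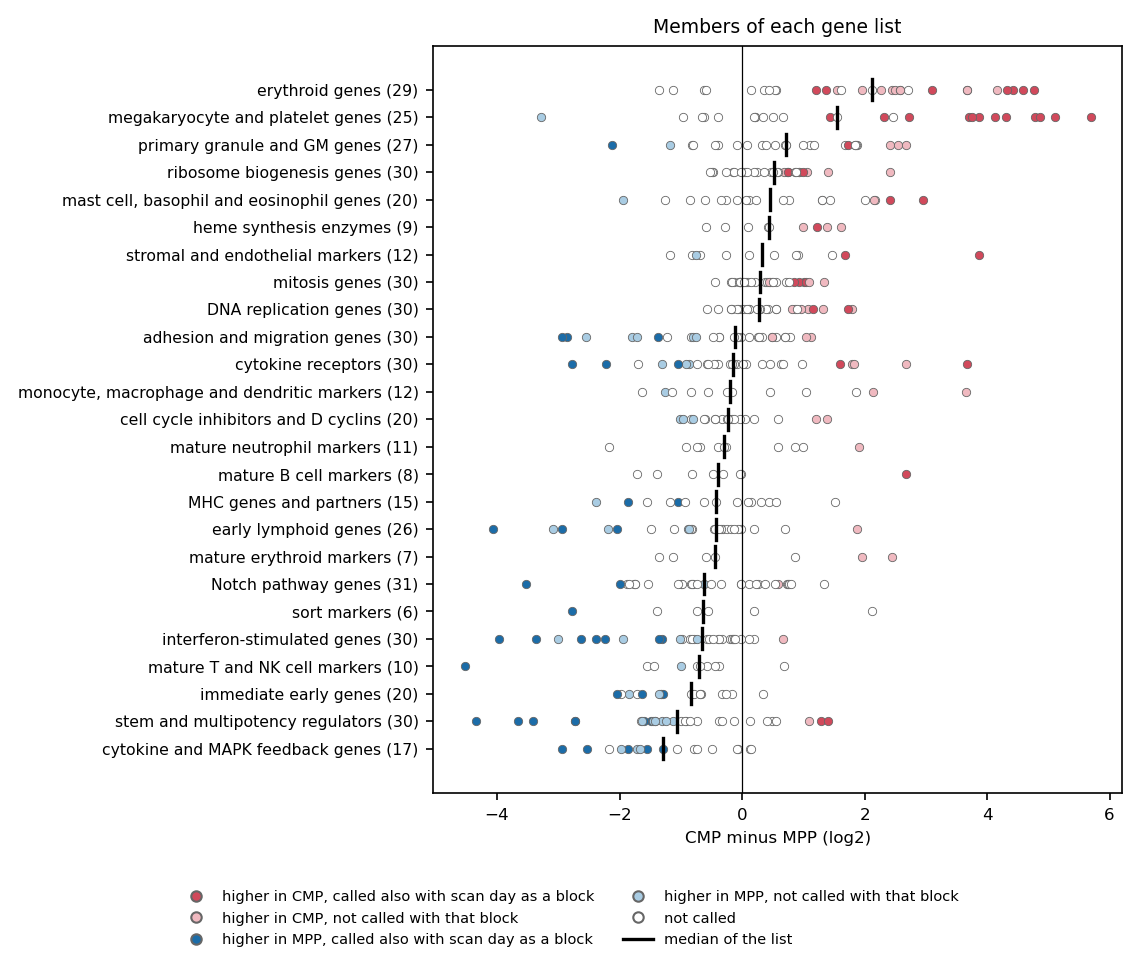
CMP minus MPP difference in log2 units for the members of the 25 gene lists, with the number of members on the array after each name. Dark red (higher in CMP) and dark blue (higher in MPP) points were called with and without the scan-day block, pale points only without it, open points were not called, and black ticks are medians, from 2.12 for the erythroid genes to -1.29 for the cytokine and MAPK feedback genes.

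Most calls among megakaryocyte and platelet genes were higher in CMP. Of 25 measured members 12 were called higher in CMP and 1 higher in MPP, and with the scan-day block 13 were called, all higher in CMP (0 were higher in MPP at an unadjusted p below 0.05). The median difference of the list was 1.55, against -0.01 over all gene names, and 1.90 within the shared slide, where 22 of 25 members were higher in CMP. Leaving out 1 array gave 11 or 12 calls higher in CMP, and 0 to 2 higher in MPP, with 2 without the unnumbered CMP array and 0 without any single one of the numbered arrays. Besides Itga2b, Gp5, Pf4 and Treml1, the called genes included Vwf, the carrier of clotting factor VIII that tethers platelets, at 8.03, 8.27 and 8.39 in MPP and 12.07, 11.77 and 12.45 in CMP. The Vwf difference of 3.87 ± 0.27 (adjusted p = 7.07e-06) was nearly the same within the slide, at 4.05. The subunits of the von Willebrand factor receptor went together, with Gp1ba at 3.71 ± 0.36, Gp1bb at 2.72 ± 0.28 and Gp9 at 1.43 ± 0.34. Clec1b, the platelet receptor CLEC-2, differed by 4.12 ± 0.64, Rab27b, a GTPase of platelet granule secretion well above background on 2 MPP arrays, by 4.31 ± 0.54, and Itgb3, the partner chain of Itga2b, by 2.31 ± 0.28.

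Slamf1, the receptor CD150, was not well above background on any MPP array and was at 5.37, 5.56 and 6.23 in CMP, at least 13.2-fold higher by the means. The thrombospondin gene Thbs1 was the 1 member called higher in MPP, with means of 7.34 ± 0.77 in MPP and 4.06 ± 0.16 in CMP (SD, n = 3 each), where 2 arrays were well above background. Its call was kept under 8 of 17 alternatives and was lost with scan day, scanning run or slide as a block, without both arrays of the shared slide and without any single array other than the unnumbered MPP array. The call for Gp9 was lost without MPP replicate 2 or replicate 3, and with the 6 MPP and CMP arrays alone. The transcription factor Fli1, which acts in megakaryocytes, had means of 12.06 ± 0.10 and 11.44 ± 0.69 and was not called.

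All calls among erythroid genes were higher in CMP, and the median of the list was smaller within the shared slide. Of 29 members 17 were called higher in CMP and none higher in MPP (limma, 0 at an unadjusted p below 0.05). The count was 10 without MPP replicate 2 and 11 without CMP replicate 1. With the scan-day block 8 were called, all higher in CMP, and the median difference went from 2.12 to 1.52, and to 1.01 within the slide. Klf1, the factor that drives the adult red cell program, had 4.23, 5.24 and 6.69 in MPP and 10.14, 9.80 and 9.46 in CMP, a difference of 4.42 ± 0.54 (adjusted p = 0.000296) and of 2.78 within the slide. The unnumbered MPP array was the highest of the MPP arrays and the unnumbered CMP array the lowest of the CMP arrays, and the groups did not overlap. Epor, the erythropoietin receptor, had 6.88, 7.40 and 7.85 in MPP and 11.56, 11.08 and 10.49 in CMP, with the same order of arrays. Aqp1, the water channel of red cells, differed by 4.33 ± 0.51 and Icam4, a red cell adhesion glycoprotein, by 3.1 ± 0.27. Zfpm1, which encodes the Gata1 cofactor FOG1, and Gfi1b, a repressor of the erythroid and megakaryocyte lineages, were well above background in MPP too and differed less, by 1.37 ± 0.23 and 1.21 ± 0.22.

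The calls for Ermap, Add2 and Ank1 were lost under several alternatives. Ermap, an erythroid membrane protein, had 3.67, 5.33 and 6.61 in MPP and 10.23, 9.43 and 8.43 in CMP, and it was called in all alternatives but those with scan day or scanning run as a block. Its difference was 4.16 ± 0.76 over all arrays and 3.28 ± 1.03 with the scan-day block. Add2 and Ank1, parts of the membrane skeleton, had differences of 3.67 and 2.57 over all arrays and of 1.06 and 1.05 within the slide, and their calls were lost with those blocks, with the 6 MPP and CMP arrays alone, and without MPP replicate 2 or CMP replicate 1. The Add2 call was also lost without MPP replicate 3. Of 7 markers of late red cells 2 were called higher in CMP, neither with the scan-day block or without MPP replicate 2, CMP replicate 1 or CMP replicate 2, and 1 without MPP replicate 3. The mean level of these markers was 4.97 to 5.77 in MPP and 5.29 to 6.19 in CMP. Hba-a1, the alpha globin gene, had 9.93, 11.10 and 11.22 in MPP and 10.17, 8.47 and 10.25 in CMP, and the groups overlapped. Nfe2, a factor of erythroid and megakaryocyte genes, was not called, with means of 13.22 ± 0.42 and 13.37 ± 0.45.

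Of the 9 heme synthesis enzymes 4 were called higher in CMP and none higher in MPP (limma, 0 at an unadjusted p below 0.05), and with the scan-day block 1 was called. Without any single one of the numbered arrays 2 were called. Alas1, the rate-limiting enzyme of heme synthesis in tissues other than red cells, differed by 1.62 ± 0.32 and lost its call only with scan day or scanning run as a block.

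Most calls among stem cell and multipotency regulators were higher in MPP. Of 30 members 15 were called higher in MPP and 3 higher in CMP, and with the scan-day block 6 and 3. Without MPP replicate 2, MPP replicate 3 or CMP replicate 2 there were 8 calls higher in MPP and without CMP replicate 1 there were 9, while without CMP replicate 1 or 2 only 1 was higher in CMP. The median difference was -1.06 and was -0.56 within the slide, where 23 of 30 members were lower in CMP. Hlf, a PAR bZIP factor of stem cells, had 13.14, 13.16 and 12.65 in MPP and 9.34, 9.13 and 9.48 in CMP, a 12.7-fold difference with an adjusted p of 3.96e-06. Procr, the endothelial protein C receptor used to enrich stem cells, had 11.23, 11.57 and 11.17 in MPP and 6.59, 6.82 and 7.55 in CMP, a 20.2-fold difference. Robo4, a guidance receptor shared by stem cells and endothelium, had means of 12.34 ± 0.04 and 8.92 ± 0.22 (SD, n = 3 each). All 3 genes were called under all 17 alternatives.

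Among the Hox genes, Hoxa10 differed by -2.72 ± 0.26 and Hoxa9 by -1.48 ± 0.17, and both were called under all 17 alternatives, as was Prdm16 at -1.60 ± 0.19. Hoxa5 (-2.72 ± 0.65), Meis1 (-0.92 ± 0.23), Gata3 (-1.63 ± 0.37) and Hmga2 (-1.46 ± 0.37) were called over all arrays but not with the scan-day block, nor without any single one of the numbered arrays. Gata2 went the other way, at 10.92, 10.92 and 10.60 in MPP and 12.04, 12.33 and 12.25 in CMP, a difference of 1.40 ± 0.15 (adjusted p = 0.000155). Runx1 was higher by 1.09 ± 0.25 with 10 of 17 alternatives keeping the call, which was lost with scan day or scanning run as a block, without any single one of the numbered arrays and with the mean of all its probes. Tal1, a partner of Gata1 and Lmo2, had means of 11.50 ± 0.32 and 11.90 ± 0.18 and was not called.

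Most calls among early lymphoid genes were higher in MPP. Of 26 members 7 were called higher in MPP and 1 higher in CMP, and with the scan-day block 3 and none (2 higher in CMP at an unadjusted p below 0.05). Without MPP replicate 2 or CMP replicate 2 there were 3 calls higher in MPP, and without any single one of the numbered arrays none higher in CMP. Their median difference was -0.43. Ltb, the lymphotoxin beta gene, had 13.57, 13.95 and 12.18 in MPP and 10.06, 9.56 and 7.89 in CMP, a difference of -4.06 ± 0.62 (adjusted p = 0.00133). Both shared-slide arrays were the lowest of their population, and the same-slide difference was -4.29. Ccr9, a chemokine receptor of cells that seed the thymus, had means of 8.78 ± 0.42 and 5.85 ± 0.53, and Lck, the kinase of T cell receptor signaling, 10.78 ± 0.07 and 8.73 ± 0.63 (SD, n = 3 each). These 3 genes were called under all 17 alternatives.

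Genes of the recombination machinery were less certain. Dntt, the terminal transferase gene of early lymphocytes, was among the brightest probes in MPP at 17.56, 17.20 and 17.41 and was at 15.70, 14.88 and 15.02 in CMP, but its call was lost with the scan-day block, without both arrays of the shared slide, and without MPP replicate 2 or CMP replicate 2. Rag1, a recombinase of antigen receptor genes, had 7.19, 6.50 and 7.06 in MPP and 4.4, 3.03 and 4.03 in CMP, where 1 array was well above background, and its call was lost with the scan-day block, without both arrays of the shared slide and without any single one of the numbered arrays. Ikzf1, the Ikaros factor, differed by -0.87 ± 0.19, a call lost with the scan-day block and without MPP replicate 2 or CMP replicate 2. Il7r, the interleukin 7 receptor, had means of 9.38 ± 0.34 and 7.89 ± 0.61 and was not called (adjusted p = 0.0735), and the E protein gene Tcf3, listed as Tcfe2a, had 11.53 ± 0.18 and 11.35 ± 0.08. Tcf7, a T lineage factor, was called higher in CMP at low levels, with means of 3.73 ± 0.38 and 5.61 ± 0.58, and the call was lost with the scan-day block, with normexp background correction and without any single one of the numbered arrays. The B cell factor gene Ebf1 is 1 of the 7 calls higher in MPP, although its probe was well above background on none of the 6 arrays, and the call was kept under 7 of the 16 alternatives that gave it a value. Pax5 was well above background on 2 MPP arrays and no CMP array.

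The count of primary granule and granulocyte-monocyte genes rested on the unnumbered MPP array. Of 27 members 4 were called higher in CMP and 2 higher in MPP, and with the scan-day block 1 and 1. Without the unnumbered MPP array 10 were called higher in CMP and 1 higher in MPP, and without any other single array 2 were called higher in CMP. Without MPP replicate 2, CMP replicate 2 or the unnumbered CMP array 1 was called higher in MPP. The median difference of 0.71 fell to 0.09 with that block. Mpo, the myeloperoxidase gene, had 15.86, 15.97 and 17.35 in MPP and 17.66, 18.37 and 18.78 in CMP, and Elane, the neutrophil elastase gene listed as Ela2, had 8.35, 8.18 and 11.16 in MPP and 10.14, 11.27 and 11.83 in CMP. The unnumbered MPP array was the highest of the MPP arrays for both genes, and for Elane it overlapped the CMP arrays. Neither gene was called (adjusted p = 0.0867 and 0.197). Without that array both were, with differences of 2.36 for Mpo and 2.82 for Ela2.

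Ctsg, the cathepsin G gene, and Prtn3, the proteinase 3 gene, were called higher in CMP by 2.54 ± 0.69 and 2.41 ± 0.69. Both calls were kept under 8 of 17 alternatives and were lost with the scan-day block and without any single array other than the unnumbered MPP array. Csf1r, the receptor for macrophage colony-stimulating factor, had 9.10, 9.04 and 8.70 in MPP and 11.77, 12.14 and 10.95 in CMP, and lost its call only with scan day or scanning run as a block. Ly86, an adaptor of the RP105 receptor, was the gene higher in CMP in both fits, at 11.31, 11.17 and 10.52 in MPP and 12.55, 12.77 and 12.86 in CMP, a call lost without both arrays of the shared slide. Cebpb, a C/EBP factor of stress granulopoiesis, was higher in MPP in both fits, at 13.66, 12.62 and 13.15 in MPP and 10.78, 10.84 and 11.44 in CMP. Cebpa had means of 9.11 ± 0.17 and 10.22 ± 0.42 and Irf8, a factor of monocytes and dendritic cells, of 13.77 ± 0.30 and 14.95 ± 0.09, and neither was called (adjusted p = 0.124 and 0.0944).

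The mean level of mature neutrophil markers was highest on the unnumbered MPP array. The mean level over the 11 measured markers was 8.13 and 8.21 in the numbered MPP arrays, 10.08 in the unnumbered MPP array, 8.14 in the unnumbered CMP array and 8.96 and 8.99 in the numbered CMP arrays. S100a9, a calcium-binding protein of neutrophils, had 15.93, 16 and 17.87 in MPP and 16.41, 16.20 and 14.97 in CMP, so the unnumbered MPP array was the highest and the unnumbered CMP array the lowest of the 6. Camp, the cathelicidin gene, had 11.95, 11.90 and 14.10 in MPP and 12.31, 12.09 and 10.78 in CMP. The median same-slide difference of the list was -2.65, with 9 of 11 markers lower in CMP. With the scan-day block the median was -1.71 and none was called. At an unadjusted limma p below 0.05, 8 were then higher in MPP and 2 higher in CMP. Of the 11 markers 1 was called over all arrays, Cxcr2 (listed as Il8rb), higher in CMP by 1.90 ± 0.51, a call kept under 6 of 17 alternatives and lost with the scan-day block, without MPP replicate 2 or 3, without CMP replicate 2 and without the unnumbered CMP array. Mpo and Ela2 were also highest in the unnumbered array among the MPP arrays, and the part of neutrophil RNA in the granule gene results was not tested.

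**Figure D4:**
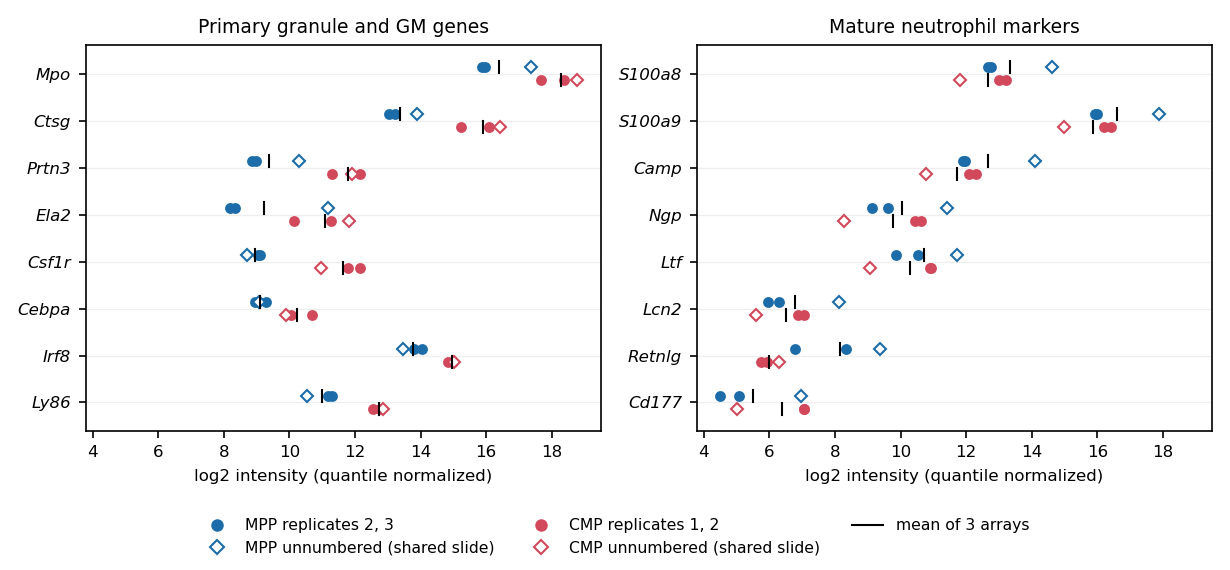
Log2 intensity of 8 primary granule and granulocyte-monocyte genes (left) and 8 mature neutrophil markers (right) on the 6 arrays, with open diamonds for the shared slide and black ticks for means of 3 arrays. For S100a9 the unnumbered MPP array is at 17.87 and the unnumbered CMP array at 14.97, with the numbered arrays between them, and for Mpo the unnumbered arrays are at 17.35 and 18.78.

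Mast cell, basophil and eosinophil genes gave 4 calls higher in CMP and 1 higher in MPP among 20 members, and 3 and none with the scan-day block (2 higher in MPP at an unadjusted p below 0.05). The calls higher in MPP became 2 without the unnumbered MPP array and 0 without MPP replicate 2, MPP replicate 3 or CMP replicate 1. The median difference was 0.45, but -0.42 with the scan-day block and -0.19 within the slide, where 11 of 20 members were lower in CMP. The member called higher in MPP was Cma1, a mast cell chymase gene, at -1.95 ± 0.43, a call lost with the scan-day block. Cpa3, the mast cell carboxypeptidase gene, had 7.58, 7.33 and 8.12 in MPP and 9.63, 10.15 and 10.49 in CMP. Il1rl1, which encodes the interleukin 33 receptor ST2, had 6.13, 6.37 and 6.53 in MPP and 9.06, 9.28 and 9.54 in CMP, a difference of 2.95 ± 0.28 (adjusted p = 5.05e-05). Fcer1g, the common Fc receptor gamma chain, was higher in CMP by 1.31 ± 0.22 and lost its call with scan day or scanning run as a block.

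All calls among feedback genes of cytokine and MAP kinase signaling were higher in MPP in both fits. Of 17 members 8 were called higher in MPP and none higher in CMP, and with the scan-day block 6 and none (limma, 0 higher in CMP at an unadjusted p below 0.05 in either fit). All 17 were lower in the CMP array of the shared slide, with a median of -1.15 against -1.29 over all arrays. Socs3, which shuts off signaling from gp130 and other cytokine receptors, had 13.26, 13.34 and 13.40 in MPP and 11.22, 11.14 and 10.05 in CMP, a difference of -2.53 ± 0.30 (adjusted p = 0.000249). Socs1 differed by -1.56 ± 0.17. Among the dual-specificity phosphatases that act on MAP kinases, Dusp4 differed by -2.94 ± 0.35, Dusp6 by -1.86 ± 0.25 and Dusp2 by -1.29 ± 0.20. The Sprouty genes Spry1 and Spry2, inhibitors of receptor tyrosine kinase signaling, differed by -1.72 ± 0.32 and -1.98 ± 0.34, and lost their calls only with scan day or scanning run as a block.

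Among immediate early genes 8 of 20 were called higher in MPP and 4 with the scan-day block, and none called higher in CMP in either fit (limma, 0 at an unadjusted p below 0.05). Leaving out MPP replicate 2 or 3 gave 4 calls, without CMP replicate 1 there were 5, and without CMP replicate 2 there were 3. Within the slide 19 of 20 were lower in CMP. Klf4, a Kruppel-like factor, had 14.55, 14.21 and 14.36 in MPP and 12.79, 12.74 and 12.67 in CMP, a difference of -1.64 ± 0.14 (adjusted p = 2.17e-05). Ier5 differed by -1.29 ± 0.21. Nr4a1, an orphan nuclear receptor induced by many stimuli, was among the brightest probes at 17.24, 16.56 and 17.33 in MPP and 15.85, 15.09 and 14.05 in CMP, and its call was lost with the 6 MPP and CMP arrays alone, without both arrays of the shared slide and without MPP replicate 2. Fos (-1.84 ± 0.50) and Egr1 (-1.32 ± 0.35) lost their calls with the scan-day block and without any single one of the numbered arrays, whereas Junb (-0.82 ± 0.23) was called with that block and lost its call without any single array.

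Most calls among interferon-stimulated genes were higher in MPP in both fits. Of 30 members 11 were called higher in MPP and 1 higher in CMP, and with the scan-day block 9 and none (1 higher in CMP at an unadjusted p below 0.05). The median difference was -0.66, and 27 of 30 were lower in the CMP array of the shared slide. Iigp1, an interferon-inducible GTPase, had 10.80, 10.90 and 10.42 in MPP and 6.22, 6.85 and 7.14 in CMP, a 15.7-fold difference with an adjusted p of 9.51e-05. Ifit3 had 8.53, 8.51 and 7.71 in MPP and 4.82, 5.21 and 4.63 in CMP. Oasl2 differed by -2.38 ± 0.19, Ifi44 by -2.63 ± 0.36, Rsad2, the antiviral enzyme viperin, by -2.24 ± 0.29, Gbp2 by -1.36 ± 0.23 and Mx2 by -1.30 ± 0.17. Irf7, an upstream factor, was not called, with means of 8.57 ± 0.46 in MPP and 7.99 ± 0.75 in CMP. Ly6e was the member called higher in CMP, by 0.66 ± 0.17, and its call was kept under 8 of 17 alternatives, being lost with the scan-day block, with the 75th percentile scaling and without any single array other than the unnumbered MPP array.

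Of 15 MHC genes and partners 3 were called higher in MPP and 2 with the scan-day block, none were called higher in CMP (limma, 1 at an unadjusted p below 0.05), and all 15 were lower in the CMP array of the shared slide. Without MPP replicate 3, CMP replicate 1 or CMP replicate 2 only 1 was called, and without the unnumbered MPP array 1 was called higher in CMP. H2-K1, a class I heavy chain, had 16.87, 17.29 and 16.87 in MPP and 15.88, 15.99 and 16.02 in CMP. Cd74, the invariant chain of class II molecules, had means of 14.21 ± 0.26 and 12.34 ± 0.15, and its call was lost without both arrays of the shared slide, without MPP replicate 3 and without CMP replicate 1 or 2. H2-Eb1, a class II beta chain, had 12.60, 13 and 13.21 in MPP and 10.64, 10.69 and 10.29 in CMP, and its call was lost with the scan-day block, without both arrays of the shared slide and without any single one of the numbered arrays. Averaging all probes under the name ended the call for H2-K1. Class I genes have near-identical copies, and their part in these signals was not tested.

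Notch pathway genes gave 5 calls higher in MPP and 1 higher in CMP among 31 members, and 5 and none with the scan-day block (1 higher in CMP at an unadjusted p below 0.05). With the 75th percentile scaling 9 were called, all higher in MPP, whereas without the unnumbered MPP array or without both arrays of the shared slide 4 were called in each direction. Without MPP replicate 2, CMP replicate 1 or CMP replicate 2 there were 3 calls higher in MPP, without any single one of the numbered arrays none higher in CMP, and without the unnumbered CMP array 2 higher in CMP. Hes5, a target repressor of Notch signaling, had 9.59, 8.80 and 9.55 in MPP and 7.47, 7.13 and 7.38 in CMP, and was called under all 17 alternatives. Hey1, another target, had 10.67, 8.10 and 10.65 in MPP and 7.07, 6.27 and 5.51 in CMP, and its call was lost with the 6 MPP and CMP arrays alone, without both arrays of the shared slide and without MPP replicate 2. Notch1 had means of 9.38 ± 0.42 and 8.55 ± 0.22 and was not called (adjusted p = 0.0875).

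Cytokine receptors divided in both directions, with 5 of 30 called higher in CMP and 6 higher in MPP, and 2 and 3 with the scan-day block. There were 3 calls in each direction without MPP replicate 2, CMP replicate 1 or CMP replicate 2. Besides Epor, the gene called higher in CMP in both fits was Il6st, the gp130 signaling chain of the interleukin 6 family, at 8.52, 8.69 and 8.74 in MPP and 10.31, 10.33 and 10.13 in CMP. Higher in MPP in both fits were Il1r1, the interleukin 1 receptor, at -2.78 ± 0.26, Il12rb1, a chain of the interleukin 12 and 23 receptors, at -2.22 ± 0.22, and Tgfbr2, the ligand-binding TGF-beta receptor, at -1.04 ± 0.15. Averaging all Tgfbr2 probes gave a difference of 0.13, which was not called. Csf2ra and Csf3r, receptors for granulocyte-macrophage and granulocyte colony-stimulating factor, were not called, with differences of -0.41 ± 0.31 and -0.39 ± 0.58.

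Of 30 adhesion and migration genes 3 were called higher in CMP and 8 higher in MPP, and with the scan-day block none (6 at an unadjusted p below 0.05) and 3. The calls higher in MPP numbered 4 without MPP replicate 2, CMP replicate 1 or CMP replicate 2, and 5 in each direction without the unnumbered MPP array. The 3 genes called with the block were Emcn, the sialomucin endomucin, at 11.15, 11.25 and 11.33 in MPP and 8.2, 8.10 and 8.6 in CMP, Cxcr3, the receptor for Cxcl9, at 9.70, 10.02 and 9.34 in MPP and 6.49, 6.72 and 7.26 in CMP, and Cd81, a tetraspanin, which differed by -1.37 ± 0.23 and lost its call with the 6 MPP and CMP arrays alone. The receptor and its ligand Cxcl9 were thus both higher in MPP. Itga4, the alpha 4 chain of the integrin VLA-4, was higher in CMP by 1.12 ± 0.22 and lost its call with scan day or scanning run as a block.

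All calls among genes of proliferation were higher in CMP in both fits. Of 30 DNA replication genes 8 were called higher in CMP and none higher in MPP (limma, 1 at an unadjusted p below 0.05), and of 30 mitosis genes also 8 and none (0 at an unadjusted p below 0.05). With the scan-day block the counts were 3 and 6, again with none higher in MPP (0 in either list at an unadjusted p below 0.05). Without any single one of the numbered arrays 3 mitosis genes were called. With the 75th percentile scaling 8 replication genes and 4 mitosis genes were called, all higher in CMP. Within the slide 28 of 30 replication genes and 29 of 30 mitosis genes were higher in CMP, with medians of 0.39 and 0.50. Cdc45, a part of the replicative helicase listed as Cdc45l, had 7.18, 7.23 and 7.88 in MPP and 9.32, 9.39 and 8.78 in CMP. Ccnb1, the cyclin of mitotic entry, had 9.10, 8.89 and 9.29 in MPP and 9.99, 9.94 and 10.38 in CMP, and its kinase partner Cdk1, listed as Cdc2a, differed by 0.93 ± 0.19. Averaging all probes ended the calls for Ccnb1 and Cdk1. Plk1, the polo kinase of mitosis, differed by 0.84 ± 0.19, a call lost with the 75th percentile scaling and without MPP replicate 2 or 3.

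Among 20 cell cycle inhibitors and D cyclins 2 were called higher in CMP and 3 higher in MPP, and with the scan-day block none (4 at an unadjusted p below 0.05) and 1, which was not among these 3. That gene was Cdkn1c, the cyclin-dependent kinase inhibitor p57, at -0.83 ± 0.28 over all arrays (adjusted p = 0.0709) and -1.58 with the block. Without any single one of the numbered arrays 1 was called higher in CMP, and without MPP replicate 2, CMP replicate 1 or CMP replicate 2 only 1 higher in MPP. Ccnd3, cyclin D3, was higher in CMP by 1.39 ± 0.28 and Btg1, an antiproliferative factor, was higher in MPP, with a difference of -1.01 ± 0.21. Both calls were lost with scan day or scanning run as a block and with the 6 MPP and CMP arrays alone. Ribosome biogenesis genes gave 12 calls higher in CMP among 30 and none higher in MPP, and 2 and none with the scan-day block (limma, 1 and 0 higher in MPP at an unadjusted p below 0.05). Without CMP replicate 2 there were 4, without MPP replicate 2 or CMP replicate 1 there were 5, with the 6 MPP and CMP arrays alone 3, and without the unnumbered CMP array 1 was called higher in MPP. Called with the block were Utp20, a factor of the small subunit processome, at 0.99 ± 0.15, and Nolc1, a nucleolar chaperone, at 0.75 ± 0.16, whose call was lost without CMP replicate 2. Myc, a driver of these genes, had 12.29, 12.83 and 11.44 in MPP and 11.28, 11.70 and 12.18 in CMP, was not called, and its difference changed sign with the scan-day block, from -0.47 to 0.44 (not called in either).

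The sorting markers were read in the same way. Ly6a, which encodes Sca-1, had 9.41, 9.80 and 10.59 in MPP and 6.38, 7.31 and 7.78 in CMP, a difference of -2.78 ± 0.52 (adjusted p = 0.00496) in the direction of the gates. Cd34 had means of 16.64 ± 0.24 and 15.25 ± 0.72 and Fcgr3, an Fc gamma receptor on which CMP but not MPP were gated, of 7.66 ± 1.09 and 9.78 ± 0.63, and neither was called (adjusted p = 0.0608 and 0.0799). Flt3, whose protein was required for MPP, had 9.89, 10.12 and 9.77 in MPP and 10.26, 9.71 and 8.16 in CMP, and the groups overlapped. Kit was well above background on all 6 arrays, with means of 11.51 ± 0.52 and 10.77 ± 0.07. Without the unnumbered MPP array Kit and Fcgr3 were called, with differences of -0.98 and 2.75.

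Markers of other mature cells held calls in every list. Over all gene names 5.75% were called higher in CMP and 6.51% higher in MPP. Of 8 mature B cell markers 1 was called (and 1 more, higher in MPP, without the unnumbered MPP array), Cd22, an inhibitory receptor of B cells, which was higher in CMP at 7.59, 7.80 and 7.51 against 4.52, 5.06 and 5.27 in MPP. Of 10 mature T and NK cell markers Cd8a and Cd5 were called higher in MPP, Cd5 under 6 of 17 alternatives and not when any single array was left out, and without any single array other than the unnumbered MPP array 1 marker was called. Of the CD3 chains Cd3e was well above background on all 6 arrays, at 7.2, 7.13 and 5.26 in MPP and 4.88, 4.78 and 5.28 in CMP, Cd3d on all MPP arrays and no CMP array, and Cd3g on 1 MPP array and no CMP array. No CD3 chain was called. The mean level over these 10 markers was 5.61 to 5.85 in MPP and 4.52 to 4.92 in CMP. Of 12 monocyte, macrophage and dendritic markers 2 were called higher in CMP and 1 higher in MPP, none of the list with the scan-day block (4 and 1 at an unadjusted p below 0.05). Without any single one of the numbered arrays 1 was called higher in CMP, and without either unnumbered array 2 higher in MPP. The list's mean level was 6.16 to 6.43 in MPP and 6.34 to 6.72 in CMP. Cx3cr1, the fractalkine receptor, was the largest of these differences, at 3.65 ± 0.72, and it lost its call with scan day or scanning run as a block and with the mean of all its probes. Of 12 stromal and endothelial markers the called genes higher in CMP were Vwf and Kdr, the latter kept under 10 of 17 alternatives and lost without any single array other than MPP replicate 3, and Vwf, Kdr and Plvap were called with the scan-day block. Cdh5, the cadherin of endothelium, was the 1 call higher in MPP (at least 1.62-fold by the means, adjusted p = 0.021). The call was kept under 5 of the 16 alternatives that gave it a value. Cdh5 was well above background on 1 MPP array and no CMP array, while Lepr was so on none of the 6. Without any single array other than MPP replicate 3 only 1 marker of this list was called higher in CMP, and higher in MPP there were 2 without the unnumbered MPP array and 0 without any single one of the numbered arrays. The part of such cells in the results was not tested.

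The levels in the other populations place the 2 groups of genes. The 2 LT-HSC arrays, 1 of them labeled as a pool, had 54.6% and 41.4% of spots well above background. They lay on scan day 4, while the numbered GMP and MEP arrays lay on scan day 1. Population and scan day thus cannot be fully told apart in these levels. Of the 300 gene names higher in CMP under the full rule, 148 had their highest mean in MEP, 68 in GMP and 54 in CMP itself, and 175 were above the CMP level in MEP and 149 in GMP. For 170 of the 300 (56.7%) the lowest mean of all 6 populations was in MPP, against 17.6% of all gene names. The rule required MPP to be low, so this share is a description. For 216 of them MPP also lay below both LT-HSC and ST-HSC. Of the 551 gene names higher in MPP, 377 had their highest mean in MPP and 146 in LT-HSC, and here too the rule, which required MPP to be above CMP, makes the counts a description.

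Vwf was highest in CMP, with a mean of 12.10 ± 0.34, followed by LT-HSC at 11.78 ± 0.11, ST-HSC at 11.60 ± 0.14, GMP at 9.99 ± 0.68, MEP at 9.66 ± 0.06 and MPP at 8.23 ± 0.18 (SD, n = 2 for LT-HSC and n = 3 for the others). The means of CMP and LT-HSC differed by less than the SD of CMP, those of GMP and MEP by less than the SD of GMP, and the mean of MPP was the lowest of the 6. Itga2b followed the order CMP at 11.72 ± 0.47, GMP at 10.45 ± 0.29, ST-HSC at 10.15 ± 0.41, LT-HSC at 7.49 ± 0.59, MEP at 7.42 ± 0.61 and MPP at 6.04 ± 1.27, in which GMP and ST-HSC, and LT-HSC and MEP, lay within their SDs. Gata1 and Klf1 were also lowest in MPP, at 5.36 ± 0.64 and 5.38 ± 1.24, and highest in MEP, at 12.08 ± 0.31 and 12.91 ± 0.11. Slamf1 was at 6.02 ± 0.87 in LT-HSC and 6.06 ± 0.20 in ST-HSC, near its level of 5.72 ± 0.45 in CMP.

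The genes higher in MPP followed other courses. Hlf had means of 12.66 ± 0.04 in LT-HSC, 12.42 ± 0.14 in ST-HSC and 12.98 ± 0.29 in MPP, and then of 9.32 ± 0.18 in CMP, 8.06 ± 0.32 in GMP and 6.73 ± 0.44 in MEP. Procr had 11.62 ± 0.47, 10.94 ± 0.44 and 11.33 ± 0.21 in the first 3 of these populations and 6.99 ± 0.50, 6.41 ± 0.40 and 4.92 ± 0.11 in the last 3. Cxcl9 and Cd8a were highest in MPP, with Cd8a at 5.06 ± 0.17 in LT-HSC, 3.13 ± 0.35 in ST-HSC and 7.75 ± 0.39 in MPP. Dntt was at 17.39 ± 0.18 in MPP and 15.20 ± 0.44 in CMP, at 8.35 ± 0.60 in GMP and at 11.46 ± 1.26 in MEP, so that CMP lay between MPP and both later populations.

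**Figure D5:**
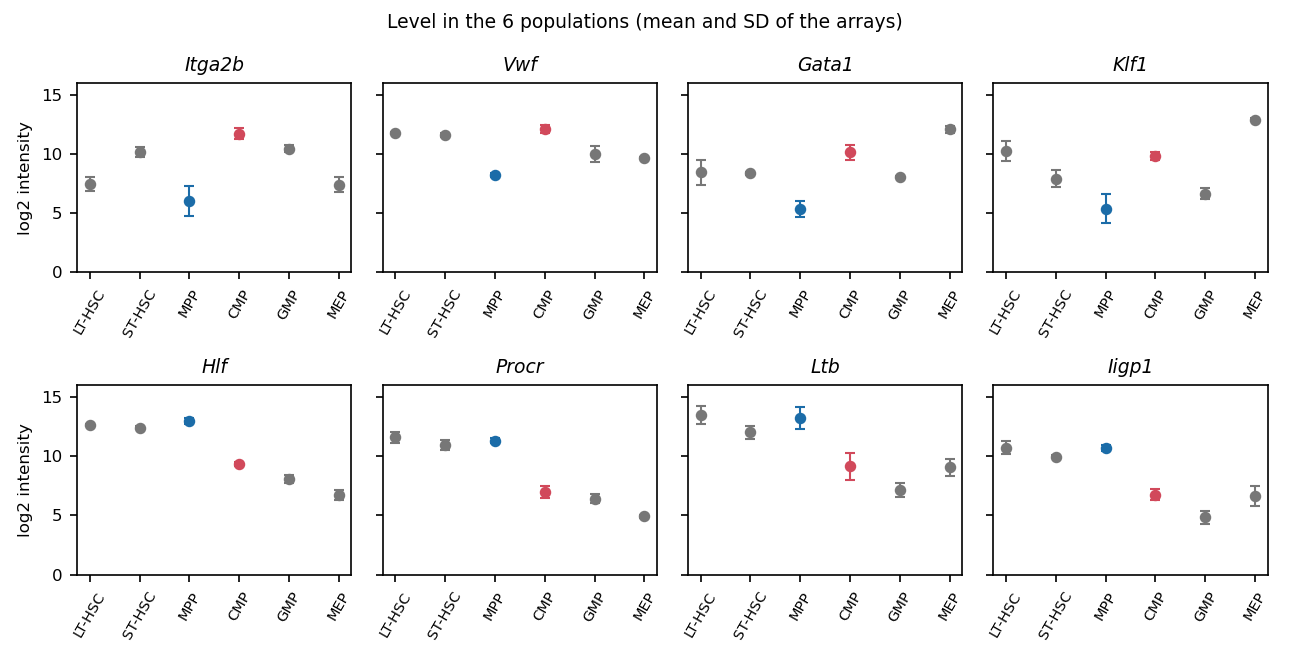
Mean log2 intensity with SD in the 6 populations (2 LT-HSC arrays, 3 of each other population) for 8 genes, with MPP in blue and CMP in red. Itga2b, Vwf, Gata1 and Klf1 have their lowest mean in MPP, while Hlf and Procr are between 10.94 and 12.98 in the first 3 populations and at 9.32 or below in the others.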

How the data were processed

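The deposited files hold 1 array each. The intensities are those the authors' scanner software gave, Agilent Feature Extraction 9.5.3.1 for scan day 1 and 10.2.1.3 for the others, per the file headers, background-subtracted and not scaled between arrays. From these, log2 values of all 45018 spots were taken and quantile-normalized, the normalization named in the study's methods. Then 1639 control spots and all outlier-flagged spots were left out, and spots of 1 probe were averaged. The log2 table deposited by the authors, normalized by them, served as an alternative.

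A limma 3.58.1 fit in R 4.3.3 over all 17 arrays, with 1 mean per population, gave CMP minus MPP with moderated statistics and Benjamini-Hochberg adjustment over 41174 probes. A gene name stood for its probe with the highest mean, and array names were updated through RefSeq. Named were the 12 leading genes each way by the rule in the text, the sorting markers, up to 4 called members of each list each way, and known regulators, some of which are not reported here. Members and lists were chosen with earlier results of these data known. Promoters came from RefSeq. The 17 alternatives changed normalization, background, filter, blocks, arrays or probes. The fit was also run on simulated data with independent noise and no slide or scan-day structure. That run cannot probe effects of slide or scan day. Arrays on 1 slide share a scan day, and the scan-day block rests on the slide that holds both populations and on the other populations of each day.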

Additional observations from a re-analysis of the deposited data

How the results depend on the processing

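The count of called probes depended on the arrays and on how scanning was treated. Against 4998 called probes (2778 higher in CMP, 2220 higher in MPP), 1393 (572 and 821) were called with scan day as a block, and 1535 (645 and 890) with 3 scanning runs as a block, which was chosen after seeing the data. With slide as a random block 3223 were called, 1583 of them higher in CMP, and with the 6 MPP and CMP arrays alone 2894, 1395 of them higher in CMP. The mean of all probes of a gene name gave 3244 calls (1784 and 1460), and the 75th percentile scaling gave 1531 higher in CMP. Without both arrays of the shared slide 7961 were called, 3918 of them higher in MPP. Leaving out 1 array gave 1773 (without CMP replicate 2) to 7572 (without the unnumbered MPP array), with 799 to 3785 higher in CMP and 958 to 3787 higher in MPP. The cause of these shifts was not tested.

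Of the values of single genes under the alternatives 2465 kept their direction and side of the threshold, 351 lost the call, 32 gained one, 23 changed sign without a call in either fit and 1 reversed a call, which was Tgfbr2 at 0.13 (not called) with the mean of all its probes, against -1.04. No paired analysis was possible because MPP and CMP share only replicate number 2 in their labels, and those arrays lie on different slides. The unnumbered arrays of the shared slide were set against each other through the same-slide difference and the scan-day block. Where all arrays of a population leave a probe near background, its level there is only bounded.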
